A study of Mus musculus with 8 samples.

Results

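A set of 10 genes of the interferon response and of the MHC class I pathway was examined in lungs of mice transgenic for Fra-2, an AP-1 transcription factor encoded by Fosl2. The 10 genes were chosen because earlier results on these same arrays placed them above or below the wild-type pool, 5 in each direction. They are 10 of 8741 named genes and are read by 11 of the 20794 probes. Each gene has 1 probe except H2-T23, which has 2. All 10 genes were measured on all 8 arrays. Their values against the pool are therefore given as a description, with no test.

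The transgenic samples were lungs of 4 male mice of 14 weeks, on a C57BL6 x CBA background, labelled as transgenic for fra-2. The control was 1 lung RNA pool, made from 4 wild-type males that matched them in age and background. Each transgenic mouse was hybridised against the pool on 2 two-colour arrays with exchanged dyes, which gives 8 arrays, and n is 4 mice. No probe named Fosl2 was analysed here, so the transgene could not be used to check the labels. The labels do not name the promoter of the transgene. In a published Fra-2 transgenic line the gene is driven by the promoter of the MHC class I gene H2-Kb, and whether these mice carry that construct is not given in the sources used here. Mice of 6 and 10 weeks belong to the study and are not analysed here.

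Values are log2 ratios, so a level in lung cannot be read from them and lung marker genes could not be checked for presence. They are given as transgenic over pool. That direction is likely only, being taken from which channel the labels give to each RNA. If it ran the other way, above and below the pool would exchange throughout. Probe names rest on a shift of 11 between annotation numbers and rows of the value table. Around each of the 11 probes that shift gave the highest agreement between probes of the same gene among 120 other shifts tried (Spearman correlation 0.181 to 0.251, against at most 0.157 at any other). In whole lung, a change in the number of cells of a type and a change in RNA per cell cannot be told apart.

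Interferons bind receptors that act through JAK kinases and STAT proteins. These bind response elements and gamma-activated sites in the promoters of interferon-stimulated genes. Interferon gamma in particular raises the whole MHC class I pathway, in which the immunoproteasome cuts proteins to peptides, the TAP transporter carries them into the endoplasmic reticulum, and a heavy chain paired with beta-2 microglobulin presents them to CD8 T cells and NK cells. Members of this response are usually described as rising together. The genes here were chosen from both sides of the pool, so their split cannot be set against that description.

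The promoters are shown because letter matches to the same short interferon elements stand before genes on both sides of the pool. A match is one of letters only, and binding or function was not tested. The genes were chosen as interferon and class I genes and from both sides. So nothing is read from the shares with a match or from their sides. The RefSeq promoter windows of build GRCm38.p6, from 250 bases before to 50 bases after the start, held 9 of the 10 genes. The interferon-stimulated response element was searched on both strands as GAAA, any 2 bases and GAAA, whose reverse complement is TTTC, any 2 bases and TTTC. It was found in 5 of these 9 genes, against 3.99% of the 27025 genes with a window and 3.44% of all 32851 windows. Of the 5, Oas1a and B2m lay above the pool and Ifit3, Igtp and H2-T23 below it. The gamma-activated site, TTCNNNGAA, reads the same on both strands and was found in 3 genes, Irf1, Oas1a and Igtp, against 9.55% of all genes and 8.30% of all windows. Neither was found in the windows of Psmb10, Psme2 or Tap1, which says only that these letters are not there. Capitals mark the matches in the stretches printed below, each 5′ to 3′ on the strand of its gene. Matches of the 2 motifs did not overlap each other, and the 2 response element matches of Oas1a overlap, so they form 1 run of capitals. The stretches lie at chr19:34583348-34583441 (plus strand, Ifit3, matches starting 156 and 122 bases before the start), chr11:58199486-58199555 (plus, Igtp, 45 and 34 bases), chr17:36032791-36032850 (minus, H2-T23, 124 bases), chr5:120907526-120907648 (minus, Oas1a, 98, 20 and 14 bases), chr2:122147523-122147582 (plus, B2m, 139 bases) and chr11:53769899-53769957 (plus, Irf1, 90 bases).
Ifit3: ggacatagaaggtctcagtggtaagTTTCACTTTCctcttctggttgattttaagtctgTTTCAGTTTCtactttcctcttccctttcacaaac
Igtp: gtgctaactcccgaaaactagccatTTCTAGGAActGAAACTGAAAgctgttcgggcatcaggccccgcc
H2-T23: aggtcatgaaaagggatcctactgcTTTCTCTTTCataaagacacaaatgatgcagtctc
Oas1a: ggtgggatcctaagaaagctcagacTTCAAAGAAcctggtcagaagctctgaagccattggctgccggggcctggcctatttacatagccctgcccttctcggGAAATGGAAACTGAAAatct
B2m: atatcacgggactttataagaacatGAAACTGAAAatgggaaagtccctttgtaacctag
Irf1: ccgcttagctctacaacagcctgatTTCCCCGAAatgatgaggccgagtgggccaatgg

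The regulator among the 10 is Irf1, a transcription factor induced by interferon gamma that switches on MHC class I and immunoproteasome genes. Its log2 ratio was 1.12, 0.41, 0.72 and 0.41 in transgenic mice 1 to 4, and it lay between 0.32 and 1.16 on the 8 arrays. All 4 mice were above the pool, mouse 1 the most. The mean was 0.66 ± 0.34 (SD, n = 4), a 1.58-fold higher level, at the 97.4th percentile of the means of all 8692 genes tested.

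Of the interferon-stimulated effectors, 1 was chosen from above the pool and 3 from below. Oas1a encodes an oligoadenylate synthetase, which senses double-stranded RNA and activates RNase L. It had log2 ratios of 0.78, 0.25, 0.27 and 0.32 in mice 1 to 4, with a mean of 0.40 ± 0.25 (1.32-fold higher). Mouse 1 stood apart from the other 3, which lay close together. Oas1a has near-identical copies such as Oas1g, and probe sequences were not used here, so its values may include theirs.

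Ifit3, an antiviral protein with tetratricopeptide repeats, had the lowest mean of the 10. Its log2 ratios were -0.26, -0.88, -0.72 and -0.87 in mice 1 to 4, and the 8 arrays ran from -0.93 to -0.15. The mean was -0.68 ± 0.29 (1.60-fold lower, 3.01th percentile), and mouse 1 was the least low. Ifit3 and Ifit3b are close copies and may share signal. Igtp, an immunity-related GTPase that acts on vacuoles of intracellular pathogens, had ratios of -0.21, -0.86, -0.28 and -1.10. Its SD of 0.43 around a mean of -0.61 was the widest of the 10 genes. Mice 2 and 4 were low, while mice 1 and 3 were close to the pool. Ifi27l2a, a small interferon-inducible protein, had ratios of -0.46, -0.84, -0.22 and -0.63, with a mean of -0.54 ± 0.26 (1.45-fold lower). All 8 of its arrays were below 0.

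The antigen-processing genes were also chosen from both sides of the pool. Psmb10 encodes an inducible catalytic subunit of the immunoproteasome. Its log2 ratios were 0.95, 0.41, 0.51 and 0.16 in mice 1 to 4, with a mean of 0.51 ± 0.33 (1.42-fold higher). All 4 mouse means were above the pool, but 1 of the 8 arrays, the Cy3 array of mouse 4, read -0.14. Psme2, the beta subunit of the proteasome activator that interferon gamma induces, had ratios of 0.80, 0.27, 0.65 and 0.20 and a mean of 0.48 ± 0.29 (1.39-fold higher). It was above 0 on 8 of 8 arrays, and its near-identical copy Psme2b may share its signal. Tap1 forms the peptide transporter together with Tap2. Its ratios were -0.46, -0.79, -0.38 and -0.73, with a mean of -0.59 ± 0.20 (1.51-fold lower), so all 4 mice were below the pool.

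In the class I complex itself the light chain and a heavy chain were chosen from opposite sides. B2m, the light chain shared by class I molecules, had log2 ratios of 0.45, 0.20, 0.43 and 0.17 in mice 1 to 4. Its mean of 0.31 ± 0.15 (1.24-fold higher, 87.8th percentile) was the smallest in size of the 10, and the Cy3 array of mouse 4 read -0.03. H2-T23 encodes the heavy chain of Qa-1, a nonclassical class I molecule recognised by NK cell receptors. Its first probe had ratios of -0.56, -0.81, -0.28 and -0.99, with a mean of -0.66 ± 0.31, and was below 0 on 8 of 8 arrays. Its second probe had ratios of 0.05, -0.05, 0.01 and -0.51, with a mean of -0.12 ± 0.26, and was below 0 on 5 of 8. The probes disagree in size, and averaged over both the gene had a mean of -0.39 ± 0.27. Class I heavy chains are similar in sequence, so both probes may also bind transcripts of related genes.

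**Figure D1:**
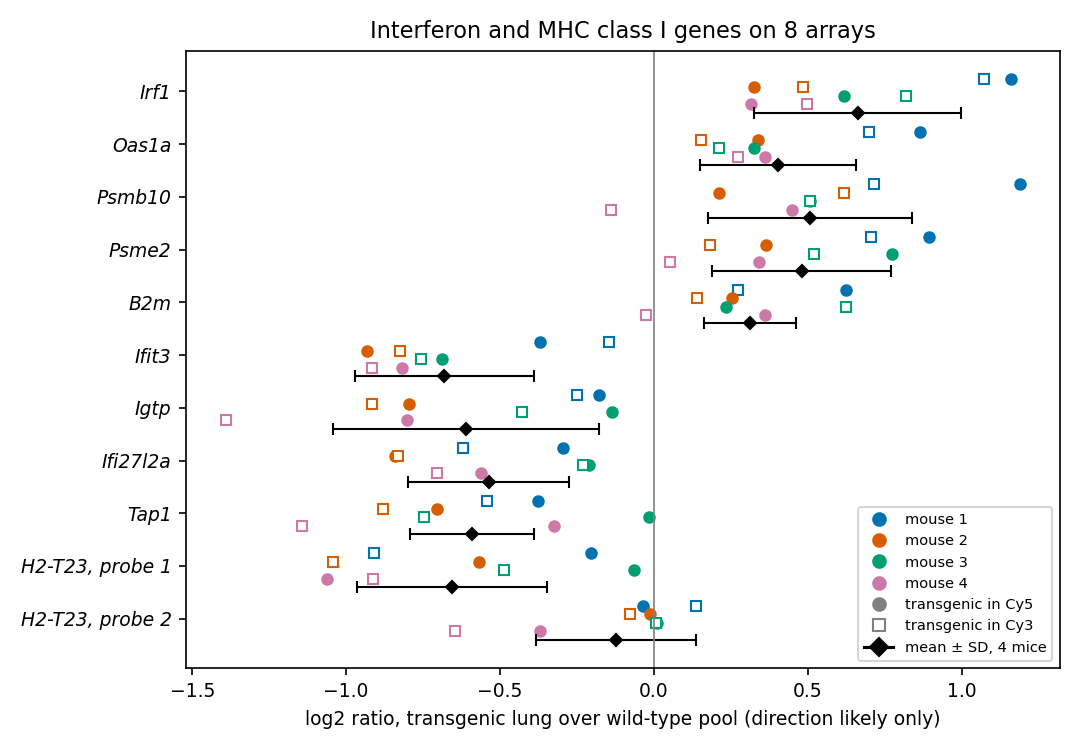
Log2 ratio (transgenic lung over wild-type pool, horizontal axis) of the 11 probes on each array, with colours for the 4 mice, filled circles for transgenic RNA in Cy5 and open squares for Cy3, and black diamonds with bars for the mean ± SD over 4 mice. The probes from Irf1 to B2m sit right of 0 except for 1 array each of Psmb10 and B2m, and the first H2-T23 probe sits left of 0 while the second straddles it.

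Over the 11 probes, 3 were above 0 on all 8 arrays (Irf1, Oas1a and Psme2), where 9.81% of the 20392 probes measured on all arrays were. Below 0 on all 8 were 5 (Ifit3, Igtp, Ifi27l2a, Tap1 and the first probe of H2-T23), where 14.7% of all probes were. The choice of the genes used these values, so nothing is read from either count.

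The order of the mice was a measure that the choice of genes did not use directly. Each mouse is part of the mean that the choice used, so the order is not fully independent of it. The highest of the 4 mice was mouse 1 in 7 of the 10 genes and mouse 3 in the other 3. Of all 8692 genes, 26.7% were highest in mouse 1 and 26.6% in mouse 3. The lowest was mouse 2 in 5 genes and mouse 4 in 5, against 19.6% and 41.3% of all genes. The counts for mouse 3 and mouse 4 were near those shares. The median of the 5 genes above the pool was 0.80, 0.27, 0.51 and 0.20 in mice 1 to 4, and that of the 5 below was -0.26, -0.84, -0.28 and -0.75. Of the 5 below, 3 were lowest in mouse 2 and 2 in mouse 4, the latter near its share of all genes. By the medians, the genes above the pool were farthest from it in mouse 1, and the genes below were farthest from it in mice 2 and 4. This order was noticed after the values were seen and was not tested over the set. The 2 sets of genes had opposite signs in each mouse, which their choice favoured, but followed a like order of mice.

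**Figure D2:**
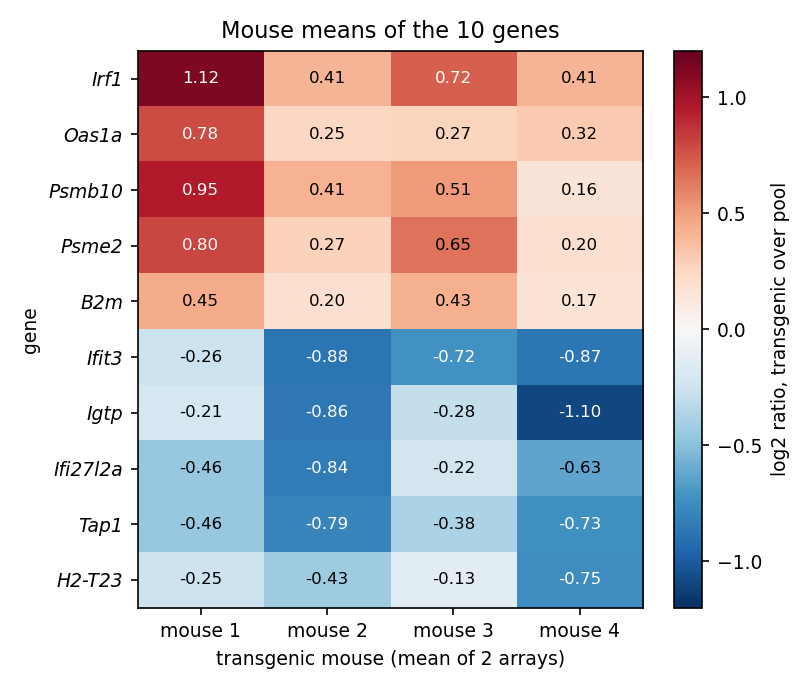
Heat map of the log2 ratio (transgenic over pool, colour and printed value) of the 10 genes, in rows, in each of the 4 transgenic mice, in columns, as the mean of 2 arrays. H2-T23 is the mean of 2 probes; the row of Irf1 runs from 1.12 in mouse 1 to 0.41 in mouse 2, and the row of Igtp from -0.21 in mouse 1 to -1.10 in mouse 4.

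Differences between mice were tested for each probe with limma's F test, in which the spread is that between the 2 arrays of a mouse and so technical. None of the 11 probes passed (0 of 11, adjusted p = 0.136 to 0.684), where 0.986% of the 20392 probes did. At an unadjusted p under 0.05 there were 7 of the 11, where 16.0% of all probes had one. Igtp had the smallest p (adjusted p = 0.136), with mice spread over 0.88 on the log2 scale. Irf1 followed (adjusted p = 0.169), with a spread of 0.71. B2m had the largest (adjusted p = 0.684) and a spread of 0.28. Over the 6 alternatives tried for each probe, adjusted p ran from 0.101 to 0.936, so the call for none of the 11 changed.

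Several lists of cell type markers were also higher in mice 1 and 3 than in mice 2 and 4. Markers of antigen-presenting cells that carry MHC class II had medians of 0.91, 0.29, 0.74 and 0.30 in mice 1 to 4, with 4 of 6 measured genes higher and 0 lower by limma on the mouse means (5 higher and 0 lower at an unadjusted p under 0.05), where 13.5% of all genes were higher and 18.4% lower. The medians of T cell and NK cell genes were 0.88, 0.17, 0.45 and 0.19 (3 of 6 higher, 1 lower), and those of monocyte and macrophage genes 1.55, 0.78, 1.31 and 0.80 (4 of 5 higher). Those 4 were Mrc1 and the complement C1q chain genes C1qa, C1qb and C1qc. The remaining gene of that list had a mean of -0.17, so its median rests largely on C1q. Pan-leukocyte genes had medians of 0.78, 0.53, 0.81 and 0.46 (4 of 5 higher). Endothelial genes had medians of 0.08, -0.44, 0.05 and -0.48 (1 of 5 lower), and epithelial genes of -0.30, -0.08, -0.37 and -0.21 (1 of 6 higher, 2 lower). Plasmacytoid dendritic cell genes, from cells known for making type I interferon, had medians of 0.42, -0.02, 0.04 and -0.01 (1 of 4 higher). The part of these cells in the values of the 10 genes was not tested. Some of the limma calls were not kept, such as Cd74 and H2-DMb1 (MHC class II), Ly6d (plasmacytoid) and Sftpb (epithelial, higher). Without mouse 1 or 3, adjusted p was 0.0811 to 0.0897 for Cd74, 0.06 to 0.0719 for H2-DMb1 and 0.0646 to 0.0808 for Ly6d. Without mouse 1 or 2 it was 0.0879 to 0.0919 for Sftpb. Using only the Cy3 arrays gave 0.079, 0.142, 0.113 and 0.153 for these 4 genes in turn. Those for H2-Eb1 and H2-DMa held under all 14 alternatives. The MHC class II genes H2-Eb1 (1.29, 0.53, 1.18 and 0.39 in mice 1 to 4) and Cd74, the invariant chain (1.32, 0.28, 1.18 and 0.21), were above the pool in every mouse, while H2-Ab1 of the same list was so in mice 1 and 3 only (0.87, -0.04, 0.69 and -0.04).

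The difference between dye orientations was the other measure that the choice of genes did not use. No probe of the 10 genes had a dye effect by limma on the within-mouse difference (0 of 11, 1 of 11 at an unadjusted p under 0.05), where 0.00490% of 20392 probes did, which is 1 unnamed probe. At an unadjusted p under 0.05 were 24.1% of all probes. The largest difference among the 11 was in Tap1, with a mean of -0.35 on the Cy5 arrays and -0.83 on the Cy3 arrays (difference 0.47 ± 0.35, limma adjusted p = 0.173). The first H2-T23 probe read -0.48 on the Cy5 arrays and -0.84 on the Cy3 arrays (adjusted p = 0.221), and Igtp -0.48 and -0.75 (adjusted p = 0.245). Irf1 and Ifit3 read slightly the other way, at 0.61 and 0.72 for Irf1 and -0.70 and -0.66 for Ifit3. In all, 9 of 11 probes were lower on the Cy3 arrays, as 57.4% of all probes were. The sign of all 11 means was the same in both orientations. The choice of genes used the ratios behind these means, so nothing is read from that. The Cy3 array of mouse 4 had the widest values, with an interquartile range of 0.91 against 0.45 to 0.52 on the other arrays. It correlated with the Cy5 array of the same mouse at 0.390 over probes, against 0.587 to 0.685 in the other mice.

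**Figure D3:**
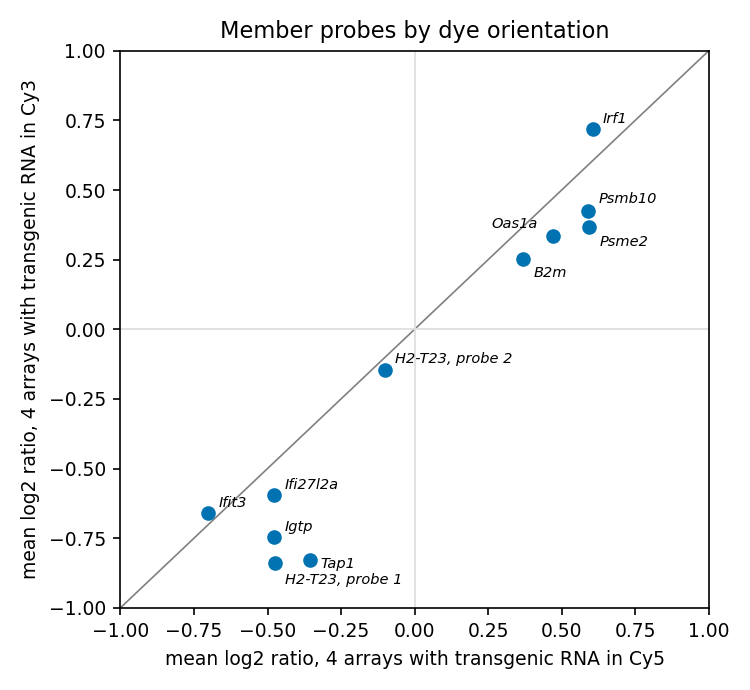
Mean log2 ratio of each of the 11 probes over the 4 arrays with transgenic RNA in Cy5 (horizontal axis) and over the 4 arrays with it in Cy3 (vertical axis), with the line of equal values. All 11 points keep their sign, which the choice of genes favours, and Tap1, at -0.35 and -0.83, lies farthest from the line.

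The other genes of the pathway were examined as far as they were measured. In all, 7 lists of 163 genes, the 10 genes not among them, had 75 genes measured. By limma on the mouse means, 9 of the 75 were higher (12.0%) and 11 lower (14.7%). Of all 8692 genes tested, 13.5% (1172) were higher and 18.4% (1598) lower, so the lists were near the background in both directions. The lists leave out the 10 genes, which were chosen for lying off the pool, while the background keeps all genes. That lowers the shares of the lists, so the 2 are not strictly alike. Their median log2 ratio was 0.01, against -0.01 over all genes. Of the 75 genes, 41 were highest in mouse 1 and 23 in mouse 3, against 26.7% and 26.6% of all genes. The lowest was mouse 4 in 50 and mouse 2 in 15, against 41.3% and 19.6% of all genes. So the counts given for mouse 3 and mouse 2 were near those shares. Separate fits without mouse 1, 2, 3 and 4, which need not call the same genes, found 3, 4, 4 and 9 genes higher and 8, 5, 8 and 7 lower. Over all genes, 601 to 954 were higher and 945 to 1214 lower with 1 mouse left out, the fewest without mouse 1. Of the 20 calls, 5 held under all 14 alternatives: Ifngr1, Socs1, Ifitm2, Gbp8 and Psmb4.

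Among receptors and signalling genes, 2 of the 12 measured (of 17 listed) rose and 1 fell, with a median of 0.04. Ifngr1, the ligand-binding chain of the interferon gamma receptor, had a log2 ratio of -1.13 ± 0.29 and so fell (adjusted p = 0.00133), with -1.16, -1.11, -0.77 and -1.48 in mice 1 to 4. Its signalling partner Ifngr2 had a mean of 0.04 ± 0.11 (adjusted p = 0.711). Socs1, an inhibitor of JAK kinases that interferon gamma induces, rose by 0.91 ± 0.46 (adjusted p = 0.00723) and lay between 0.55 and 1.52 in the 4 mice. Tyk2, a kinase of the type I interferon receptor, rose by 0.27 ± 0.07 (adjusted p = 0.0257). Its call was lost with any 1 mouse left out (adjusted p = 0.0556 to 0.0839) and on the Cy3 arrays alone (adjusted p = 0.0734). So the receptor chain was below the pool and the inhibitor above it in all 4 mice.

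Of 7 further genes measured, which were 6 interferon regulatory factors and Irf2bp1, a binding partner of Irf2, 1 rose and 1 fell. Irf4, a factor of B cells, T cells and macrophages, rose by 0.73 ± 0.45 (adjusted p = 0.0136), a call that was lost without mouse 4 (adjusted p = 0.0625) and on the Cy3 arrays alone (adjusted p = 0.113). Irf3, which induces type I interferon after viral sensing, fell by 0.46 ± 0.31 (adjusted p = 0.0262). Its call was lost with mouse 1, 2 or 4 left out (adjusted p = 0.0639 to 0.083) and on the Cy5 arrays alone (adjusted p = 0.064). Irf7, the amplifier of the type I response, had a mean of 0.13 ± 0.25 (adjusted p = 0.373).

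Of 23 antiviral interferon-stimulated genes measured (of 54 listed), 1 rose and 4 fell, with a median of -0.07. The 4 that fell were Ifitm2, a membrane protein that restricts virus entry (-0.72 ± 0.37, adjusted p = 0.00902), Ifi27 (-0.45 ± 0.35, adjusted p = 0.0369), Parp12 (-0.36 ± 0.14, adjusted p = 0.0161) and the exonuclease gene Isg20 (-0.33 ± 0.11, adjusted p = 0.0178). Ifitm2 had -0.44, -0.94, -0.37 and -1.12 in mice 1 to 4, so mice 2 and 4 were lowest, as for Igtp. The ubiquitin ligase gene Trim25 rose by 0.25 ± 0.10 (adjusted p = 0.0433). Apart from Ifitm2, these calls were lost with 1 mouse left out: Ifi27 with mouse 2, 3 or 4 left out (adjusted p = 0.0595 to 0.117), Parp12 without mouse 2 (adjusted p = 0.0703), Isg20 without mouse 1 or 3 (adjusted p = 0.0558 to 0.0614) and Trim25 with mouse 1, 2 or 3 left out (adjusted p = 0.102 to 0.156). They were also lost on 1 dye orientation alone, with adjusted p = 0.15 for Ifi27, 0.0921 for Isg20 and 0.588 for Trim25 on the Cy5 arrays and 0.0584 for Parp12 on the Cy3 arrays, and Trim25 with the mouse as a random block (adjusted p = 0.0584).

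The list of interferon gamma-induced GTPases and chemokines had 5 of its 26 genes measured. They were the GTPase genes Gbp8 and Tgtp1 and the surface protein genes Icam1, Ly6e and Fcgr1, and none of them is a chemokine. Gbp8, a guanylate-binding protein, rose by 1.07 ± 0.61 (adjusted p = 0.00948), with 1.82, 0.43, 1.31 and 0.74 in mice 1 to 4. The GTPase gene Tgtp1, of the same family as Igtp, had 1.76, -0.17, 0.72 and -0.27 and did not pass (mean 0.51 ± 0.95, adjusted p = 0.242). Its mice 1 and 3 were above the pool and its mice 2 and 4 below. So GTPase genes known to be induced by interferon gamma lay above the pool (Gbp8), below it (Igtp) and on both sides by mouse (Tgtp1). Of these, Igtp had been chosen for its side.

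Of 24 other class I and class I-like heavy chains listed, 4 were measured. None of the 4 passed limma's test (0 higher and 0 lower, with 1 higher and 1 lower at an unadjusted p under 0.05). H2-K1, the classical heavy chain gene, had log2 ratios of 1.22, 0.11, 0.79 and 0.16 in mice 1 to 4 (mean 0.57 ± 0.53, adjusted p = 0.0507). Its order of mice was that of B2m except that mice 2 and 4 exchanged places. Of 12 other genes listed for peptide transport, trimming and loading, 6 were measured. Of the 6, the translocon gene Sec61a1 rose by 0.32 ± 0.09 (adjusted p = 0.0171). Its call was lost with mouse 1, 2 or 3 left out (adjusted p = 0.0539 to 0.077) or when only the Cy3 arrays were used (adjusted p = 0.0832). Tapbp, which bridges the transporter and the heavy chain, had a mean of 0.17 ± 0.16 (adjusted p = 0.163), with Tap1 at -0.59.

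Of 18 genes of the proteasome, its activators and its assembly, 3 rose and 5 fell, with a median of -0.001. The inducible subunit gene Psmb8 had 1.35, 0.33, 0.63 and 0.04 in mice 1 to 4, in the order seen in Psmb10, but did not pass (mean 0.59 ± 0.56, adjusted p = 0.0544). Psmb7, the constitutive subunit whose place Psmb10 takes in the immunoproteasome, fell by 0.51 ± 0.27 (adjusted p = 0.0138, and 0.0555 on the Cy5 arrays alone), and was at -0.27, -0.50, -0.37 and -0.90 in mice 1 to 4. So Psmb10 was above the pool and its constitutive counterpart below it in all 4 mice. Of these, Psmb10 had been chosen for its side, and an exchange of subunits was not tested. Psmb5, the constitutive counterpart of Psmb8, rose by 0.35 ± 0.21 (adjusted p = 0.0324), and Psmb1 rose by 0.41 ± 0.18 (adjusted p = 0.0138). Psme1, the partner of Psme2 in the activator, had a mean of 0.07 ± 0.33 (adjusted p = 0.686), with mouse 1 at 0.43 and mouse 4 at -0.34. Psme3, which forms a separate activator, rose by 0.29 ± 0.07 (adjusted p = 0.0208). The structural subunit gene Psmb4 fell by 0.53 ± 0.09 (adjusted p = 0.00331) as the mean of probes at -1.06 and -0.003. Psma7 (-0.39), Psma1 (-0.37) and Psma2 (-0.36) also fell (adjusted p = 0.0136 to 0.0414). The call for Psmb5 was lost with mouse 1, 2 or 3 left out (adjusted p = 0.0508 to 0.129), that for Psme3 with mouse 1, 2 or 3 left out (adjusted p = 0.0558 to 0.0979) and that for Psmb1 without mouse 1 or 2 (adjusted p = 0.055 to 0.0628). The call for Psma7 was lost with mouse 1, 2 or 4 left out (adjusted p = 0.0623 to 0.138), that for Psma1 without mouse 2 (adjusted p = 0.0571) and that for Psma2 without any 1 mouse (adjusted p = 0.0552 to 0.115). On the Cy5 arrays alone the calls for Psma7 (adjusted p = 0.618), Psma2 (0.0913) and Psmb5 (0.0542) were lost, and on the Cy3 arrays alone those for Psme3 (adjusted p = 0.279), Psmb1 (0.124), Psma1 (0.068) and Psmb5 (0.0584).

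**Figure D4:**
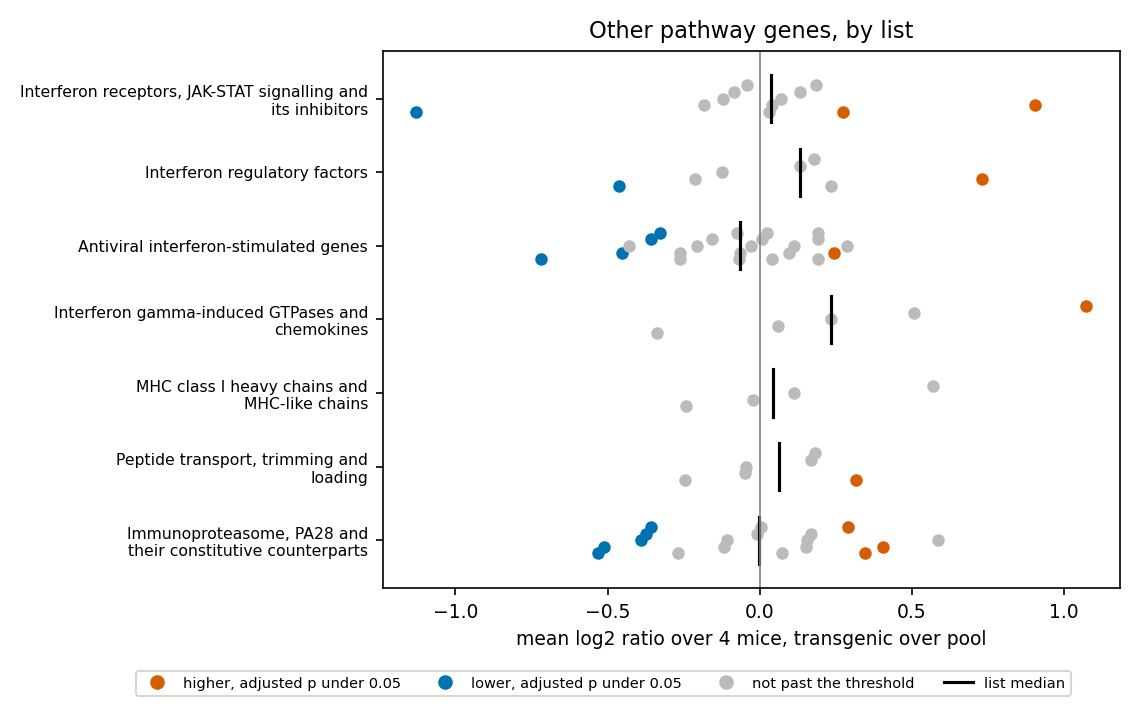
Mean log2 ratio over 4 mice (transgenic over pool, horizontal axis) of the 75 other pathway genes by list, with a point for each gene, orange and blue for genes higher and lower at an adjusted p under 0.05, grey for the rest, and a black line for the list median. Medians lie between -0.07 and 0.24, and the genes farthest from 0 are Ifngr1 at -1.13 and Gbp8 at 1.07.

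The genes most like the members were sought over the 8 arrays among 8635 other named genes, by the root mean square difference from the mean profile. Lair1 (0.09), Tubb6 (0.10), Serpinb1a (0.11) and Tbc1d10c (0.11) were closest to the mean profile of the 5 genes above the pool, which themselves differed from it by 0.12 (Psme2) to 0.24 (Irf1). Lair1, an inhibitory receptor of leukocytes, had 0.77, 0.18, 0.52 and 0.26 in mice 1 to 4. Apip (0.09), Dgka (0.10), Wdr5b (0.10) and Itgb1 (0.10) were closest to the profile of the 5 below the pool, whose own differences were 0.17 (Ifi27l2a) to 0.24 (Ifit3). Itgb1, the integrin beta 1 chain, had -0.41, -0.71, -0.32 and -0.76 in mice 1 to 4. The genes named were picked as the closest of 8635, so their differences cannot be set against those of the members. Likeness in these values describes 4 mice only.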

How the data were processed

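Lung RNA was purified on RNeasy columns and its cDNA carried Cy3 or Cy5, per the labels' protocols. The deposited values are log2 ratios made by the authors. The sources used here do not state their background correction, normalization or centring, and spot intensities were not used. Placeholder values beyond 10 in size (498) were set to missing, beside 706 missing as deposited. Names come from a platform annotation shifted by 11, with symbols updated through the RefSeq table of GRCm38.p6; 12296 probes have 1 name, 0 several, and 8498 are unnamed. Annotation numbers above the end of the range in which the shift held were not used. Probes of a gene were averaged per array and the 2 arrays of a mouse were averaged. For 8692 genes, limma 3.58.1 (R 4.3.3) set the mean against 0 in a two-sided test, with 4.27 prior degrees of freedom beside 3 residual ones. Calls needed a Benjamini-Hochberg adjusted p under 0.05. This leaves out the spread of the control, which is 1 pool. Differences between mice were tested with limma's F test and a dye term, and dye effects with limma on within-mouse differences, over 20392 probes. Each test was tried on simulated data with known changes. Tables and figures were made in Python 3.11.15. The number of mice, 4, limits the precision.

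The 10 genes and the lists were chosen with earlier results of these data known. Named were the 10 genes with every probe, of each list up to 4 called genes by size in each direction (all where 5 or fewer were called), and the 4 genes most like each mean profile. Other genes, such as Ifngr2, Irf7, Tgtp1, H2-K1, Tapbp, Psmb8, Psme1, H2-Eb1 and Cd74, were named after their values were seen. The alternatives left out each mouse, used 1 dye orientation, changed centring, normalization, placeholders, the choice of probe and the filter on missing values, or used the mouse as a random block.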

Additional observations from a re-analysis of the deposited data

Results flagged for a closer look

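Oas1a in mouse 1, at 0.78, lay far above the other 3 mice, which were between 0.25 and 0.32; the gap was 0.866 of the range, above Dixon's 95% critical value for 4 values. It was the only one of 11 probes so marked, and chance marks about 1 in 20.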

How the results depend on the processing

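No paired analysis was possible because there is 1 group, with 1 pool as its control. Of 122 recomputed means of the 10 genes, 117 moved by less than 1 SD of the mice, 5 moved more and 0 changed sign. Those 5 were Tap1 on the Cy5 (-0.35) and Cy3 (-0.83) arrays alone and H2-T23 by probe. Many of the 117 could not have moved more. Leaving out 1 mouse cannot shift a mean by 1 SD, and keeping placeholders left these genes unchanged. The choice of genes used their sign, so nothing is read from these counts. With 1 mouse left out, 601 to 954 genes were higher, 945 to 1214 lower, 3 to 9 pathway genes higher and 5 to 8 lower, with fewer samples in each fit. On the Cy3 arrays alone 682 genes and 3 pathway genes were higher, and on the Cy5 arrays alone 7 pathway genes were lower. With the mouse as a random block 18 pathway genes were lower, or 17 with a dye term. Probes that differ between mice numbered 84 without the dye term and 0 to 500 with 1 mouse left out, and probes with a dye effect 0 to 1; the cause was not tested. Leaving out the Cy3 array of mouse 4, an alternative chosen after seeing the data, gave 13 pathway genes higher and 12 lower. Signal over background is unknown.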

Other observations

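The 6 measured genes of T cells and NK cells differed in their spread between the mice. Cd2 (SD 0.22), Cd3g (SD 0.20) and Cd247 (SD 0.13) were above the pool in all 4 mice, with SDs near the median of 0.17 over all genes. All 3 were called higher by limma. The call for Cd3g was lost on the Cy3 arrays alone (adjusted p = 0.429). That for Cd247 was lost on the Cy5 arrays alone (adjusted p = 0.937) and without mouse 1 or 3 (adjusted p = 0.0567 to 0.0584). It was also lost with the mouse as a random block (adjusted p = 0.0592) and without the Cy3 array of mouse 4 (adjusted p = 0.0974). The other 3 of the 6 genes spread more widely. Nkg7, a granule protein gene, had log2 ratios of 1.41, -0.38, 0.07 and -1.09 in mice 1 to 4, so it lay above the pool in mouse 1 and below it in mice 2 and 4. The granzyme A gene Gzma had 0.20, -1.24, -1.34 and -1.99, above the pool in mouse 1 alone, and fell by 1.09 ± 0.92 (adjusted p = 0.0321), a call lost with mouse 2, 3 or 4 left out (adjusted p = 0.0805 to 0.122). The T cell receptor complex gene Cd3d had 1.14, 0.16, 0.70 and 0.05.

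Endothelial genes did not share a sign. Emcn, which encodes endomucin, had 0.91, -0.08, 0.83 and -0.17 in mice 1 to 4, and Cdh5, which encodes VE-cadherin, had 0.08, -0.70, 0.05 and -1.14. In both, mice 1 and 3 were above mice 2 and 4. Neither passed the test against the pool (adjusted p = 0.183 for Emcn and 0.146 for Cdh5).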
